A study of Mus musculus with 3 samples.

Results

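Immediate early genes are switched on within minutes of a stimulus, without new protein synthesis, and 10 of them were followed here through macrophages taken from injured mouse muscle: Fos, Fosb, Jun, Junb, Jund, Egr1, Nr4a1, Atf3, Ier2 and Dusp1. They were chosen by name, as a textbook set known to answer both wound signals and the handling of tissue during dissociation. Earlier results of these data were known when the choice was made. The set is 10 of the 13242 genes in the count table. All 10 were present in the table, all 10 had at least 10 counts per 1000000 in every library, and each was counted in all 9 of the authors' clusters and all 3 treatments.

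The data are single-cell RNA sequencing of macrophages sorted from mouse quadriceps that had lost a volume of muscle to surgery, at 1 week. The wound was treated with polycaprolactone (PCL, a synthetic polyester), with urinary bladder matrix (UBM, a decellularised extracellular matrix scaffold) or with saline, which served as the control, and every wound, saline included, had the same surgery. Each treatment is 1 droplet library, and the sources used here do not give the strain, the age, the number of mice per library or the time from tissue to droplet. The series title concerns macrophages that make interleukin-36 gamma and fibrosis driven by interleukin-17.

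The Fos and Jun families encode the subunits of AP-1, a dimeric transcription factor, and Atf3 can dimerise with Jun proteins. Egr1 and Nr4a1 encode other early transcription factors, Ier2 encodes an early nuclear protein, and Dusp1 encodes a phosphatase that switches off the p38 and JNK kinases. In macrophages these genes answer growth factors, bacterial products, stress kinases and cyclic AMP, the last through CREB, which binds the cyclic AMP response element (CRE).

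Promoter sequence was available for 8 of the 10 genes in the RefSeq table used (GRCm38.p6, 250 bases before to 50 bases after the start). On either strand, the CRE half-site TGACG was found in 6 of these 8 windows, Fos, Fosb, Junb, Nr4a1, Atf3 and Dusp1, against 20.8% of all 32851 promoters. The complete CRE, TGACGTCA, which contains the half-site on both strands, was found only in Dusp1, against 1.79% of all promoters. Neither the AP-1 site TGANTCA nor the CArG box was found in any of the 8 windows (7.81% and 1.63% of all promoters), and the NF-kB motif was found in 3 of 8, Fos, Fosb and Nr4a1, against 5.09%. These are matches of letters in a short window and say nothing of factor binding. The 250 bases before the start are shown for 4 genes whose levels are set apart below, in lower case with CRE half-sites (TGACG, or CGTCA where it lies on the other strand) in capitals, the whole CRE in capitals for Dusp1, and for Jun, which has no half-site, the related site TGACATCA, which was chosen after the sequence was seen and is in 3.62% of all promoters. Fos lies on the plus strand at chr12:85473640-85473889, Jun on the minus strand at chr4:95052223-95052472, Nr4a1 on the plus strand at chr15:101266596-101266845 and Dusp1 on the minus strand at chr17:26508473-26508722, and each sequence runs 5′ to 3′ into its gene.
Fos: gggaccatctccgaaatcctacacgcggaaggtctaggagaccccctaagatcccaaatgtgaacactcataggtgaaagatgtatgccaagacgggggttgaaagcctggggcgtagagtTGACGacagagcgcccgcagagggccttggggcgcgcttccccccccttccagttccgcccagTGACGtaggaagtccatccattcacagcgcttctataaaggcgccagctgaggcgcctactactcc
Jun: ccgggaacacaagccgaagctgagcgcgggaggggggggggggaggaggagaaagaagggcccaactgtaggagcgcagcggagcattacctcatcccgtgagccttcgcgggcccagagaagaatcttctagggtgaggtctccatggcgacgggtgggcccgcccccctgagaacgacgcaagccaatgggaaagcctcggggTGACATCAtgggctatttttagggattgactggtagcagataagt
Nr4a1: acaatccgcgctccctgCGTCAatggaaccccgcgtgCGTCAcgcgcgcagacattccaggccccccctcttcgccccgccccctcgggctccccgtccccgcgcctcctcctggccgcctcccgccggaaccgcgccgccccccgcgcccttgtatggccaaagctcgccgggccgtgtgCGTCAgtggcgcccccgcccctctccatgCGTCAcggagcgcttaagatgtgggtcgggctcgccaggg
Dusp1: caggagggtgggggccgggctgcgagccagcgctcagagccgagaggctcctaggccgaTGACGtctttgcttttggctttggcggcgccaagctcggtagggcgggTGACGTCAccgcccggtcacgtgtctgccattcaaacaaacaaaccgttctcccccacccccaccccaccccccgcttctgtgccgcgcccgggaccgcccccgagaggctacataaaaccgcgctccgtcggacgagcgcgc
Nr4a1 had 4 half-sites, Dusp1 had 3, of which 2 form its CRE, and Fos had 2.

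Transcripts were counted by unique molecular identifiers (UMIs): there were 1753 cells and 11006118 UMIs in the PCL library, 2280 cells and 14586276 UMIs in the UBM library, and 341 cells and 1888343 UMIs in the saline library, with median depths of 5662, 5477 and 4594 UMIs per cell. The median mitochondrial share was 3.48% in PCL, 2.41% in UBM and 3.26% in saline cells. Macrophage markers were present in every library, with all 10 of 10 above 0. Cell barcodes found in more than 1 library numbered 6. Levels are counts per 1000000 UMIs (CPM), given with 95% intervals that cover counting error only. With 1 library per treatment no comparison can be tested, and intervals that do not overlap do not show that treatments differ.

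Over all cells, 7 of the 10 genes were at least 1.5-fold lower with PCL than with saline and 7 of 10 were at least 1.5-fold lower with UBM than with saline, and none was 1.5-fold higher in either comparison. Of all genes that reached 10 CPM in either library compared, 11.9% were this much lower with PCL than with saline and 12.7% higher, and 18.5% were this much lower with UBM than with saline and 9.5% higher. The 2 comparisons share the saline library. The 10 genes together took 5785 CPM (5740 to 5830) in PCL, 6231 CPM (6191 to 6272) in UBM and 8894 CPM (8760 to 9030) in saline cells. The summed level was therefore 0.650 times that of saline with PCL (0.639 to 0.662) and 0.701 times with UBM (0.689 to 0.712). The median log2 ratio of the 10 genes, with 10 CPM added, was −0.93 for PCL over saline and −0.83 for UBM over saline, beside 0.04 and −0.07 over all genes. Between the scaffolds the sum was 0.928 times with PCL relative to UBM, and 1 of 10 genes was 1.5-fold higher (Nr4a1) and 1 lower (Egr1), where 17.2% of all genes were higher and 8.89% lower.

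**Figure D1:**
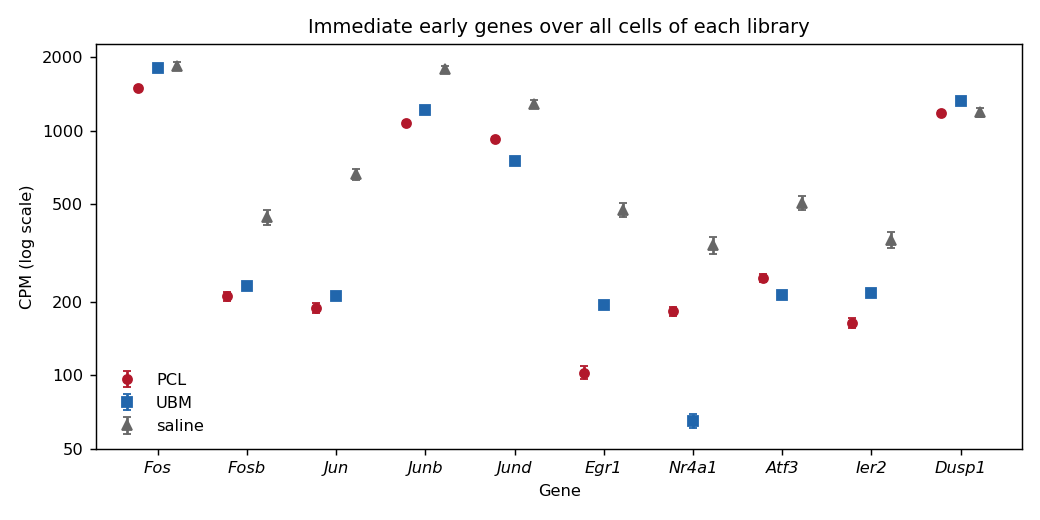
CPM of each gene over all cells of the PCL, UBM and saline libraries, on a log scale, with exact 95% Poisson intervals. Saline lies highest for 9 of the 10 genes, with Fos overlapping UBM, and Nr4a1 shows the widest gap between the scaffolds, at 183 CPM in PCL and 65.0 CPM in UBM.

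Among the AP-1 genes, Fos, whose protein pairs with a Jun protein, was at 1497 CPM (1474 to 1520) in PCL, 1804 CPM (1783 to 1826) in UBM and 1846 CPM (1785 to 1908) in saline cells. The UBM and saline intervals overlap, and the ratio of UBM to saline was 0.98 (0.94 to 1.01), which passed 1 with other scalings (1.03 to 1.08). Fosb, a close relative of Fos, was at 211 CPM in PCL, 232 CPM in UBM and 443 CPM in saline cells, so it was 2.11-fold lower (1.94 to 2.28) with PCL and 1.91-fold lower (1.77 to 2.06) with UBM. Fos and Fosb thus differed in how far the scaffolds lay below saline, although both were lowest with PCL.

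Jun, the founding partner of Fos, was at 188 CPM (180 to 197) in PCL, 212 CPM (204 to 219) in UBM and 664 CPM (627 to 701) in saline cells. It was 3.52-fold lower (3.28 to 3.78) with PCL and 3.13-fold lower (2.93 to 3.35) with UBM than with saline. Junb, which can restrain Jun at some targets, was at 1075 CPM in PCL, 1220 CPM in UBM and 1788 CPM in saline cells, a difference from saline of 1.66-fold (1.60 to 1.73) with PCL and 1.47-fold (1.41 to 1.52) with UBM. Jund, the member of the family that is usually made at steady levels, was at 930 CPM in PCL, 755 CPM in UBM and 1286 CPM in saline cells. Jund was the AP-1 subunit that was lower with UBM than with PCL, and it lay 1.38-fold (1.32 to 1.45) below saline with PCL and 1.70-fold (1.63 to 1.78) below saline with UBM.

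Egr1, a zinc-finger factor, was at 102 CPM (96.6 to 109) in PCL, 193 CPM (186 to 200) in UBM and 473 CPM (443 to 506) in saline cells. None of these intervals overlap, and Egr1 was 4.62-fold lower (4.23 to 5.05) with PCL and 2.45-fold lower (2.27 to 2.65) with UBM than with saline. Nr4a1, an orphan nuclear receptor, was at 183 CPM (175 to 191) in PCL, 65.0 CPM (60.9 to 69.3) in UBM and 341 CPM (315 to 368) in saline cells. Nr4a1 ran opposite to Egr1 between the scaffolds, at 2.81 times (2.60 to 3.04) with PCL relative to UBM, where Egr1 was at 0.53 times (0.50 to 0.57). Atf3, a stress-induced factor, was at 249 CPM in PCL, 213 CPM in UBM and 507 CPM in saline cells, 2.04-fold lower (1.89 to 2.19) with PCL and 2.38-fold lower (2.22 to 2.56) with UBM.

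Ier2 was at 164 CPM (156 to 171) in PCL, 218 CPM (210 to 225) in UBM and 357 CPM (330 to 385) in saline cells, 2.18-fold lower (1.99 to 2.38) with PCL and 1.64-fold lower (1.51 to 1.78) with UBM. Dusp1, the phosphatase, was at 1186 CPM (1166 to 1207) in PCL, 1319 CPM (1300 to 1338) in UBM and 1189 CPM (1140 to 1239) in saline cells. It was the only gene of the set not highest in saline over all cells: the ratio to saline was 1.00 (0.95 to 1.04) with PCL and 1.11 (1.06 to 1.16) with UBM. Fos with UBM also lay close to saline, at 0.98 times (0.94 to 1.01). No single cell gave more than 4.63% of a gene's UMIs in a library, a share reached by Jun in saline, but shares within clusters were larger.

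The excess of the summed set in saline was largest in 1 cluster and was not seen in every cluster. The authors pooled all cells and cut them into 9 clusters, named F1, F2, FP1, R1, R2, R3, RP1, RP2 and RP3, with no key to the letters in the labels, and since the clusters were made from these same cells their differences are described and not tested. RP3 held 92 PCL, 200 UBM and 68 saline cells, which is 5.25%, 8.77% and 19.9% of each library, and gave 7.62%, 10.2% and 32.7% of each library's UMIs of the 10 genes. The 10 genes took 8355 CPM (8121 to 8593) in PCL RP3 cells, 9515 CPM (9322 to 9712) in UBM RP3 cells and 20420 CPM (19883 to 20968) in saline RP3 cells. In RP2 the sum was instead lowest in saline, at 5367 CPM, against 5943 CPM in PCL, with overlapping intervals, and 6294 CPM in UBM. Only Fos (1032 CPM in saline, 1762 CPM in PCL, 1936 CPM in UBM) and Dusp1 (538, 1455 and 1527 CPM) were lowest in saline RP2. Each other gene was highest in saline RP2, some with overlapping intervals. In FP1 the sum was highest in PCL, at 5345 CPM, overlapping saline at 5268 CPM. Even so, Fosb, Jun, Junb, Nr4a1, Atf3 and Ier2 were each highest in saline FP1, some with overlapping intervals. Within each library RP3 had the highest sum, and its interval did not overlap that of the next cluster, F1, at 6210 CPM in PCL, 7837 CPM in UBM and 9932 CPM in saline cells. The lowest sum was in RP1 in PCL (5286 CPM, overlapping FP1 at 5345 CPM), in FP1 in UBM (4304 CPM) and in FP1 in saline (5268 CPM, overlapping RP2 at 5367 CPM). Counting clusters with at least 20 cells in a library, 8 of the 10 genes peaked in RP3 among 6 clusters in PCL, 7 of 10 among 8 clusters in UBM and 9 of 10 among 6 clusters in saline. The share of all genes that peaked in RP3 was not counted, so no excess of these genes is read from those numbers.

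**Figure D2:**
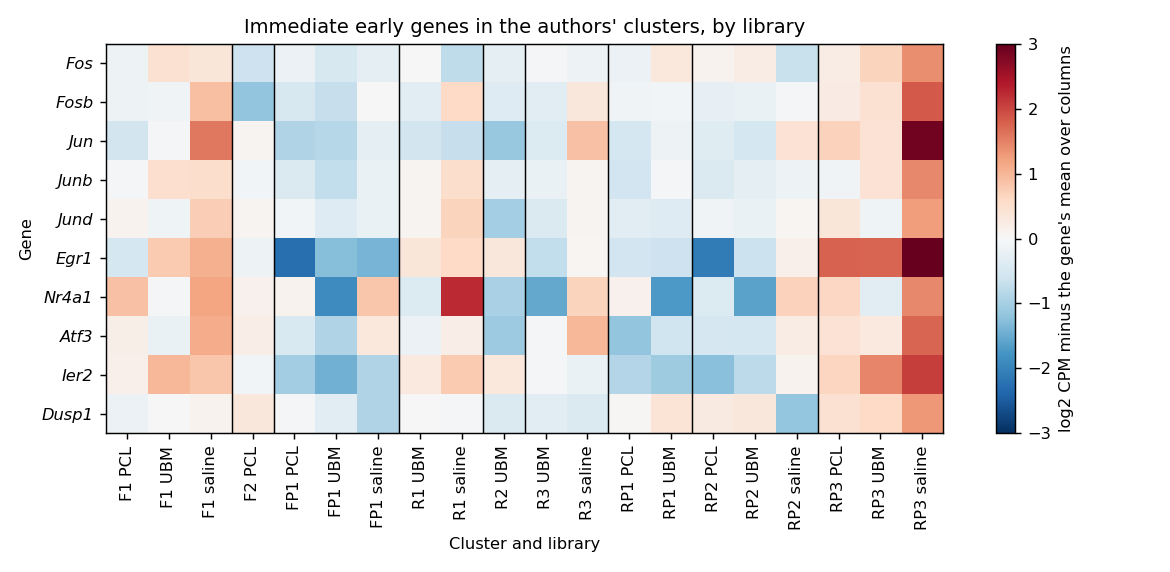
Level of each gene in each cluster and library with at least 20 cells, as log2 CPM minus the gene's mean over the columns, with red above and blue below that mean. The saline RP3 column is the darkest red for 9 of the 10 genes, and for Nr4a1 the R1 saline column is darkest, at 666 CPM.

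Egr1 had the widest range between clusters. In PCL it was at 639 CPM in RP3 and 39.1 CPM in FP1, a 16.4-fold range; in UBM it was at 623 CPM in RP3 and 76.9 CPM in FP1, an 8.11-fold range; and in saline it was at 1969 CPM in RP3 and 71.7 CPM in FP1, a 27.5-fold range. The Egr1 interval of RP3 overlapped that of no other cluster in any library. A single cell held 31.4% of the 35 Egr1 UMIs of saline FP1, against 5.86% in saline RP3, so the low end of the saline range rests on few UMIs. Below RP3, F1 and R1 overlapped in UBM and in saline, and in PCL the neighbours F2, F1 and RP1, at 169, 131 and 126 CPM, overlapped in turn.

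Jun followed the same order at the top in saline, with 2129 CPM (1959 to 2311) in RP3, 854 CPM (760 to 957) in F1 and 520.5 CPM (434 to 619) in R3, and 177 CPM in R1 at the bottom, a 12.0-fold range. A single cell held 27.5% of the Jun UMIs in saline R1, 19.3% in F1 and 8.04% in RP3. In the scaffold libraries Jun ranged less, 3.03-fold in PCL and 2.95-fold in UBM, and in UBM each cluster's interval overlapped that of the next in the order. Fosb was at 319, 366 and 964 CPM in the RP3 cells of PCL, UBM and saline, and in PCL RP3 its interval overlapped that of RP1. Ier2 was also highest in RP3, at 351, 617 and 946 CPM in PCL, UBM and saline, with F1 next in each library, and its range was 3.76-fold, 7.53-fold and 7.83-fold.

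Fos ranged 1.79-fold between clusters in PCL, 2.21-fold in UBM and 4.43-fold in saline, where RP3 cells had 4337 CPM (4092 to 4594) and R1 cells 978 CPM (867 to 1099), of which a single cell gave 22%. The Fos intervals of RP3 and RP2 overlapped in PCL. Dusp1 ranged 1.56-fold in PCL, 2.04-fold in UBM and 5.46-fold in saline, where RP3 cells had 2937 CPM and RP2 cells 538 CPM. The even Dusp1 levels over whole libraries therefore covered an uneven saline library, with a higher RP3 and a lower RP2 and FP1 than in the scaffold libraries.

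Junb and Jund did not peak in RP3 everywhere. Junb was highest in F1 in PCL, at 1273 CPM, and in F1 in UBM, at 1861 CPM, where F1 overlapped its neighbour in the order (F2 in PCL, RP3 in UBM), and in saline it was highest in RP3, at 3581 CPM. Jund was highest in RP3 in PCL (1194 CPM), in R1 in UBM (980 CPM) and in RP3 in saline (2223 CPM). Atf3 was highest in RP3 in each library, at 386, 351 and 953 CPM in PCL, UBM and saline, and in PCL its RP3 and F2 intervals overlapped.

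Nr4a1 departed most from the set. It was highest in F1 in PCL (258 CPM, overlapping RP3), in F1 in UBM (138 CPM, overlapping RP3) and in R1 in saline (666 CPM, 575 to 767, above RP3 at 380 CPM without overlap). Across the 14 sums of a cluster in a library with at least 50 cells, the Pearson r of log2(CPM + 10) between each gene and the sum of the other 9 was lowest for Nr4a1, at 0.58, or 0.42 without saline RP3, and highest for Fosb, at 0.96, or 0.90 without it. These sums share libraries and depth, and r is given as a description. Among 3819 other genes that reached 50 CPM in the highest of these sums, the 5 most like the summed set were Zcchc11 (r 0.93, and 0.87 without saline RP3), Casp4 (0.92 and 0.79), Midn (0.92 and 0.75), Pnrc1 (0.92 and 0.80) and Foxp1 (0.91 and 0.81).

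Where both libraries compared had 50 or more cells in a cluster, the gap to saline depended on the cluster. In RP3, 10 of 10 genes were at least 1.5-fold lower with PCL than with saline, where 22.1% of all genes were, and 10 of 10 were at least 1.5-fold lower with UBM than with saline, where 32% of all genes were, while 26.5% and 18.2% of all genes were higher. The RP3 sums were 0.41 times saline with PCL and 0.47 times saline with UBM. In FP1, 4 of 10 genes were lower and 1 higher with PCL than with saline (15.1% and 16.9% of all genes), and 3 of 10 were lower and none higher with UBM than with saline (22.3% and 18.8%). The FP1 sum was 1.01 times saline with PCL and 0.82 times saline with UBM. In F1, which had enough cells only for PCL and saline, 6 of 10 genes were lower and none higher (16.6% and 24.3% of all genes), and the sum was 0.63 times saline. Between PCL and UBM, 1 gene was 1.5-fold higher and 1 lower in each of 3 clusters: FP1 (19.3% and 14.2% of all genes), RP2 (23% and 16.6%) and RP3 (28.3% and 10.1%). The higher gene was Nr4a1 in each, and the lower was Egr1 in FP1 and RP2 and Ier2 in RP3.

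**Figure D3:**
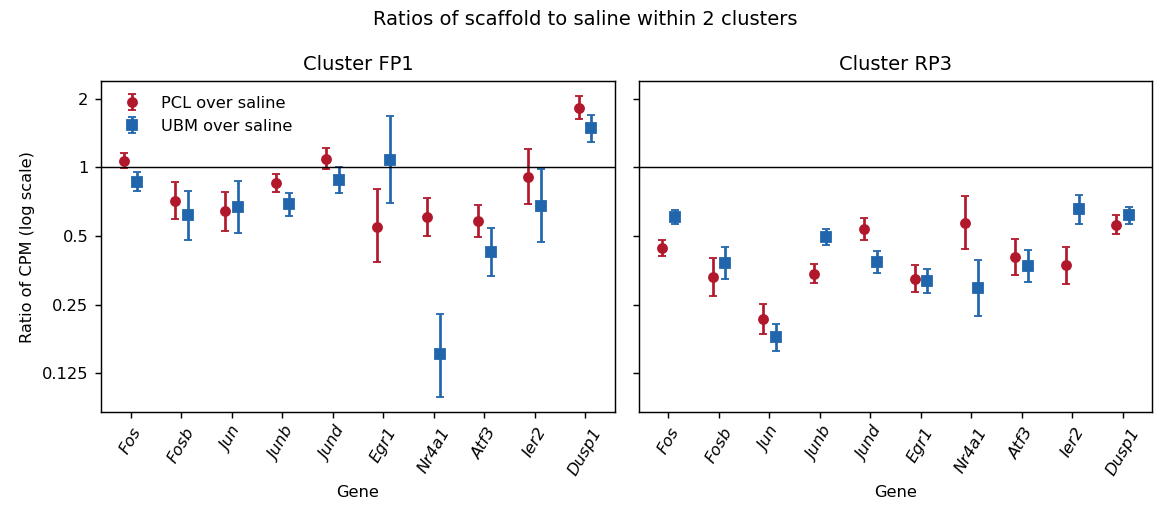
Ratio of CPM, PCL over saline and UBM over saline, within clusters FP1 and RP3, on a log scale with exact 95% intervals and a line at 1. In RP3 every ratio lies below 1, and in FP1 Dusp1 lies above 1, at 1.83 for PCL over saline and 1.48 for UBM over saline.

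Jun was at 460 CPM in PCL, 382 CPM in UBM and 2129 CPM in saline RP3 cells, 4.63-fold lower (4.0 to 5.37) with PCL and 5.57-fold lower (4.88 to 6.36) with UBM. In FP1 it was at 152 CPM in PCL, 159 CPM in UBM and 237 CPM in saline cells, which is 0.64 times saline with PCL and 0.67 times saline with UBM. Jun was lower with both scaffolds in both clusters, by less in FP1. Dusp1 changed direction: in RP3 it was at 1644 CPM in PCL, 1806 CPM in UBM and 2937 CPM in saline cells, and in FP1 at 1174 CPM in PCL, 952 CPM in UBM and 643 CPM in saline cells. Egr1 in FP1 was at 39.1 CPM in PCL, 76.9 CPM in UBM and 71.7 CPM in saline cells, so that with UBM it was at 1.07 times saline (0.70 to 1.68), an interval that includes 1.

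Nr4a1 in FP1 was at 151 CPM in PCL, 37.8 CPM in UBM and 250 CPM in saline cells, 4.0 times as high with PCL as with UBM (2.78 to 5.96). The same ratio was 2.27 (1.54 to 3.26) in RP2 and 1.93 (1.48 to 2.52) in RP3. In all 4 clusters with at least 20 cells in each library, F1, FP1, RP2 and RP3, Nr4a1 and Atf3 were highest in saline and lowest in UBM, and Jund was lowest in UBM. Fosb, Jun and Junb were highest in saline in all 4, while Fos was highest in saline in 1 of 4. Several of these orders rest on near ties with overlapping intervals. PCL over UBM, Atf3 was 1.01 (0.78 to 1.29) in RP2 and 1.10 (0.92 to 1.30) in RP3, and Jund 1.06 (0.94 to 1.19) in RP2. Junb in F1 was at 1879 CPM in saline and 1861 CPM in UBM. In RP2, Fosb was at 257 CPM (192 to 336) in saline and 232 CPM (217 to 248) in UBM.

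RP3 cells carried part of the difference over all cells, and results without them were added after the values were seen. Without RP3 the sum was 0.808 times saline with PCL and 0.859 times saline with UBM, and 6 of 10 and 5 of 10 genes were at least 1.5-fold lower. The share of all genes this much lower was not counted without RP3, so no excess is read from these 2 counts. Egr1 was then 1.39-fold lower with UBM than with saline, in place of 2.45-fold, and 3.10-fold lower with PCL. Junb with PCL (1.40-fold lower) and Ier2 with UBM (1.37-fold lower) also came under 1.5-fold, and Fos turned to 1.03 times saline with PCL and 1.22 times with UBM. Dusp1 was then at 1.29 times saline with PCL and 1.43 times with UBM. Nr4a1 was 5.42-fold lower with UBM and 1.85-fold lower with PCL without RP3.

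Other measures also moved with these cells. RP3 cells had a median of 5580 UMIs in PCL, 4194 UMIs in UBM and 3981 UMIs in saline, and a median mitochondrial share of 5.27%, 4.15% and 4.44%. Muscle-fibre markers, such as the actin gene Acta1, summed to 93 CPM in PCL, 59.8 CPM in UBM and 343 CPM in saline RP3 cells, with 8 of 8 above 0 in each, and over all cells to 39.2, 47.9 and 707 CPM. In R3 cells of saline they summed to 4542 CPM, while the sum of the 10 early genes there, 6791 CPM, was below that of F1 and R1. Macrophage markers summed to 27935 CPM in PCL, 29118 CPM in UBM and 29913 CPM in saline RP3 cells, with 10 of 10 above 0. Neutrophil markers summed to 560 CPM in PCL, 85.5 CPM in UBM and 145 CPM in saline RP3 cells, with 7, 6 and 3 of 8 above 0 and Ly6g at 0 in all 3, Retnlg at 0 in UBM and saline, and S100a9, Cxcr2 and Il1r2 at 0 in saline, and over all cells to 1667, 112 and 249 CPM. Erythroid markers, the globin genes and Alas2, of which 4 of 5 were in the table, summed to 121 CPM in PCL and 23.7 CPM in UBM RP3 cells and were at 0 in saline RP3 cells, and over all cells they summed to 210, 3.50 and 3.18 CPM. The part of muscle-fibre, neutrophil or erythroid RNA, mitochondrial share or time of handling in the level of the 10 genes was not tested.

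To compare cells at equal depth, cells were thinned to 2500 UMIs each, and 154 PCL, 162 UBM and 79 saline cells below that depth were left out. Of the 10 genes, a cell showed on average 5.23 ± 1.62 in PCL, 5.29 ± 1.73 in UBM and 6.21 ± 2.14 in saline (SD over 1599, 2118 and 262 cells). In RP3 the averages were 6.40 in PCL, 6.38 in UBM and 8.16 in saline. High numbers were more frequent in saline: exactly 8 were seen in 5.88% of PCL, 5.67% of UBM and 14.9% of saline cells, and all 10 in 0.750%, 0.519% and 4.96%. The median cell had 12, 15 and 17 UMIs of the set per 2500 in PCL, UBM and saline, and the cell at the 90th percentile had 27, 29 and 51.9. The upper end of the saline library thus lay further from its middle than in the scaffold libraries.

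**Figure D4:**
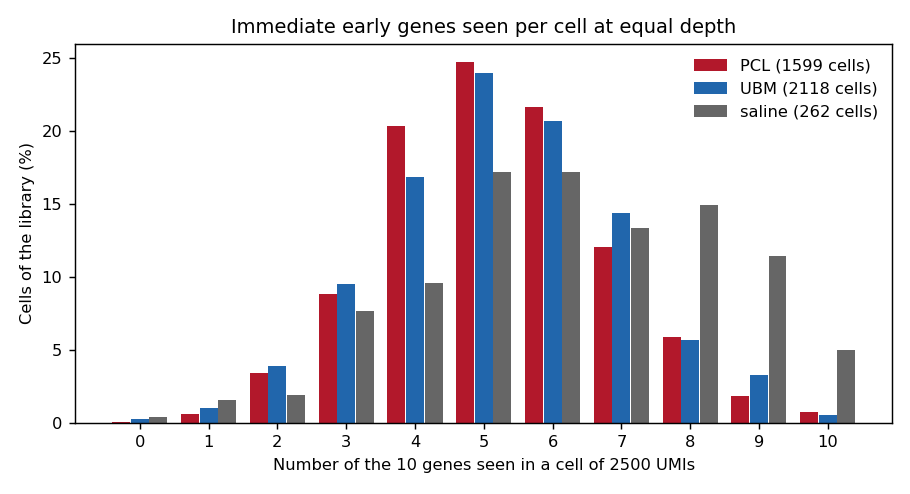
Percent of each library's cells by how many of the 10 genes had at least 1 UMI after thinning to 2500 UMIs, in 1599 PCL, 2118 UBM and 262 saline cells. All 3 libraries peak at 5 genes or, in saline, at 5 and 6, and saline has more cells at 8, 9 and 10.

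Fos and Dusp1 were each seen in fewer saline cells, although their saline CPM was not lower than in PCL. Fos had a UMI in 88.1% (86.4 to 89.7) of thinned PCL, 90.8% (89.5 to 92.0) of UBM and 79.0% (73.6 to 83.8) of saline cells, and unthinned in 95.8%, 95.7% and 88.0%. Dusp1 had a UMI in 82.9% of thinned PCL, 88.5% of UBM and 71.8% of saline cells, and unthinned in 94.2%, 95.7% and 82.1%. Since these shares run against the CPM of Fos, no order of the libraries is read from the share of cells for any gene. Egr1 was seen in 15.3% (13.6 to 17.2) of thinned PCL, 26.5% (24.7 to 28.5) of UBM and 42.0% (35.9 to 48.2) of saline cells, and unthinned in 26.8%, 39.5% and 49.6%. Nr4a1 was seen in 35.1% (32.8 to 37.5) of thinned PCL, 14.0% (12.5 to 15.5) of UBM and 45.4% (39.3 to 51.7) of saline cells, and unthinned in 54.4%, 25% and 56.3%. No cell type known to lack these genes was in the sort, so the share that free RNA gives was not tested.

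Thinned counts of the genes of the set were more correlated across cells in saline. Over the 45 pairs, the median Pearson r of log2(1 + UMIs per 2500) across cells was 0.13 in PCL, 0.14 in UBM and 0.35 in saline, and 0.11, 0.14 and 0.24 after each cluster's mean was removed. Cells of a library share its preparation, so these are descriptions. The highest pair in each library was Fos with Dusp1, an AP-1 subunit and a phosphatase of its upstream kinases, at 0.42 in PCL, 0.46 in UBM and 0.67 in saline, or 0.42, 0.43 and 0.65 within clusters. Within saline clusters the r of Nr4a1 to the other 9 genes ran between −0.13 for Jun and 0.16 for Egr1, and it was also below 0 for Fos, at −0.10. In PCL it was at most 0.14, for Junb, and in UBM at most 0.20, for Ier2.

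**Figure D5:**
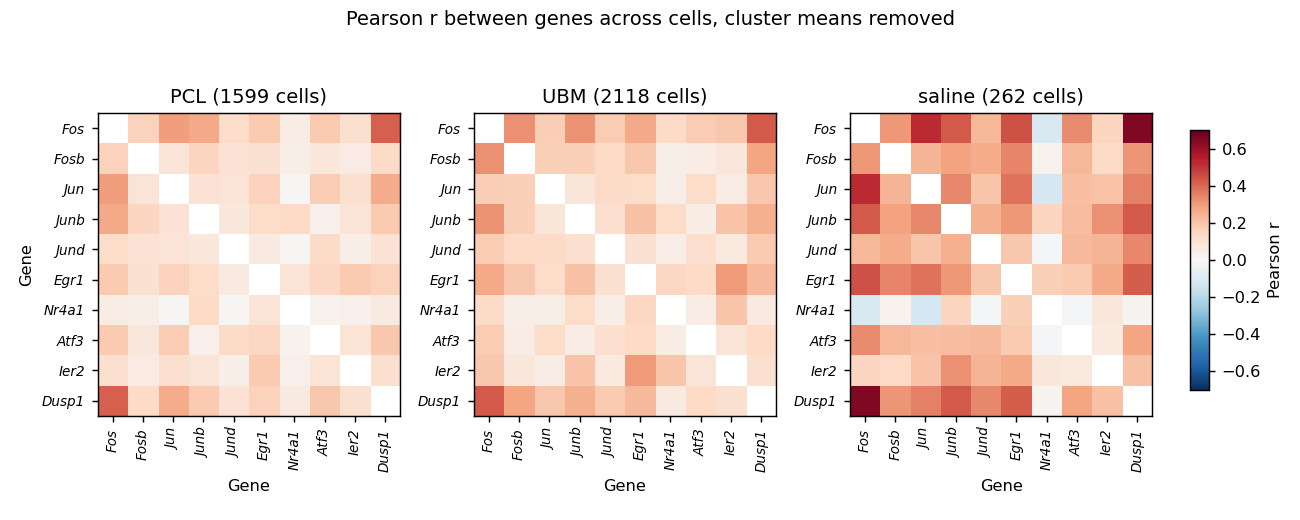
Pearson r between each pair of the 10 genes across thinned cells of the PCL, UBM and saline libraries, after cluster means were removed, with red above and blue below 0. Fos and Dusp1 form the darkest pair in each panel, at 0.42, 0.43 and 0.65, and in the saline panel the blue cells are in the Nr4a1 row and column, down to −0.13 with Jun.

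Other lists of early and stress genes were read against the same shares of all genes as above. For PCL over saline these were 11.9% lower and 12.7% higher, and for UBM over saline 18.5% lower and 9.5% higher. For PCL over UBM they were 8.89% lower and 17.2% higher. Among further early response genes, 8 of 27 were at least 1.5-fold lower and 3 higher with PCL than with saline, 14 of 27 lower and 4 higher with UBM than with saline, and 11 of 27 higher and 4 lower with PCL than with UBM. Btg2, which slows cell division, was at 251 CPM in PCL, 267 CPM in UBM and 735 CPM in saline cells, highest in saline. Hbegf, a growth factor of the epidermal growth factor family, went the other way with UBM, at 8.81 CPM in PCL, 111 CPM in UBM and 16.4 CPM in saline cells. Within RP3, 16 of 27 of these genes were lower and 1 higher with PCL than with saline (22.1% and 26.5% of all genes). With UBM, 21 of 27 were lower and 1 higher than with saline (32% and 18.2% of all genes).

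The relatives of Nr4a1 followed it between the scaffolds. Nr4a2 was at 140 CPM in PCL, 40.2 CPM in UBM and 148 CPM in saline cells, and Nr4a3 at 11.3, 1.92 and 21.2 CPM. Egr2, a relative of Egr1, was at 49.8 CPM in PCL, 51.1 CPM in UBM and 104 CPM in saline cells. In the list of the other Egr and Nr4a genes with their Nab cofactors, 0 of 5 were higher and 2 lower with PCL than with saline (12.7% and 11.9% of all genes). With UBM against saline, 0 were higher and 4 lower (9.5% and 18.5%), and 3 were higher and 0 lower with PCL than with UBM (17.2% and 8.89%).

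Among the other AP-1 genes, 2 of 6 were lower with PCL (11.9% of all genes) and 3 of 6 lower with UBM than with saline (18.5%). None was higher, where 12.7% and 9.5% of all genes were. Batf3, a factor of dendritic cell development, was at 14.6 CPM in PCL, 62.0 CPM in UBM and 61.4 CPM in saline cells. Early NF-kB targets were lower with UBM than with saline in 13 of 17 and higher in 1 (18.5% and 9.5% of all genes). They were lower with PCL than with saline in 6 of 17 and higher in 2 (11.9% and 12.7%). Nfkbiz, an atypical inhibitor of the NF-kB family, was at 142 CPM in PCL and 495 CPM in saline cells, and Il1b, the cytokine interleukin-1 beta, at 678 CPM in PCL, 104 CPM in UBM and 779 CPM in saline cells. Cxcl2 of the same list went the other way, at 2585 CPM in PCL, 2104 CPM in UBM and 1401 CPM in saline cells.

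Feedback inhibitors of the MAP kinases were mixed, with 2 of 8 higher and 2 lower against saline with either scaffold. Over all genes 12.7% were higher and 11.9% lower with PCL, and 9.5% higher and 18.5% lower with UBM. In this list and the next, no difference from these shares is read from so few genes. Dusp2, a nuclear relative of Dusp1, was at 36.9 CPM in PCL, 11 CPM in UBM and 74.1 CPM in saline cells. In the upstream kinases and factors, 2 of 13 were higher and 1 lower with PCL than with saline, and 0 of 14 higher and 2 lower with UBM than with saline, and Mapk14, which encodes p38 alpha, was at 50.1 CPM in PCL, 41.1 CPM in UBM and 81.0 CPM in saline cells.

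Lists tied to other kinds of stress were mixed. They are short, and no difference is read from the shares of all genes. Those shares were 12.7% higher and 11.9% lower with PCL than with saline, and 9.5% higher and 18.5% lower with UBM. Heat shock genes, which also answer warm tissue digestion, were at least 1.5-fold higher in 2 of 11 and lower in 1 with PCL than with saline, and higher in 2 and lower in 2 with UBM than with saline. Hspa1a, an inducible chaperone, was at 28.6 CPM in PCL, 22.3 CPM in UBM and 66.7 CPM in saline cells, and Hsph1, a cochaperone, at 35.1, 45.3 and 13.2 CPM, in the opposite order. Glucocorticoid-induced genes were higher in 1 of 4 and lower in none with PCL than with saline, and higher in none and lower in 2 of 4 with UBM than with saline. Genes of the integrated stress response were lower in 1 of 5 and higher in none with PCL than with saline, and higher in 2 of 7 and lower in 1 with UBM than with saline.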

How the data were processed

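Per the labels' protocols, cells were captured with a 10x 3′ kit, counted with Cell Ranger (version not given) and clustered on the pooled cells with Seurat. The submitters' processing notes name Seurat version 2 and list build hg38, although the symbols are those of mouse. The authors deposited raw UMI counts, whole numbers up to 1880, for 13242 genes in 4374 cells, and a table of each cell's condition and cluster. Condition names ECM, PBS and Synthetic were read by meaning as UBM, saline and PCL. The sources used here do not give filters on cells or any removal of doublets, and none was added.

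From the deposited counts, UMIs were summed over the cells of a library or cluster and divided by its total, as CPM, with exact Poisson 95% intervals. Ratios have exact conditional binomial and shares of cells Clopper-Pearson 95% intervals, all for counting error only, since PCL, UBM and saline have 1 library each. No test was made: genes at least 1.5-fold apart, given 10 CPM or more in either library, were counted. Levels by cluster needed 20 cells and ratios within clusters 50. Cells were thinned once to 2500 UMIs (395 left out). The ratio intervals were run on library sums simulated with Poisson counting error, the error they assume. That run says nothing of spread between cells or animals.

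The 10 genes, 9 program lists and 10 cell-type marker lists were chosen with earlier results of these data known. All 10 genes were eligible to be named, with the 2 highest and 2 lowest of each program list in each comparison and the 5 genes most like the set. Alternatives were 3 other scalings (edgeR 4.0.16 in R 4.3.3 for the trimmed mean of M values), each cell counted alike, equal cluster weights, thinning, 10 CPM added, no minimum, and leaving out cells over 10% mitochondrial UMIs, clusters F2 and R3, the top cell or RP3. Python 3.11.15, numpy 2.4.6, scipy 1.17.1 and pandas 2.3.3 were used.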

Additional observations from a re-analysis of the deposited data

Results flagged for a closer look

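Some genes lay on opposite sides of 1 in different clusters under the same pair of libraries, with counting intervals that exclude 1. With 1 library per treatment none of these differences between clusters was tested.

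Between the scaffolds, PCL over UBM was 1.24 in FP1, 0.910 in RP2 and 0.731 in RP3 for Fos. Junb gave 1.24 in FP1, 0.892 in RP2 and 0.689 in RP3. Ier2 gave 1.33 in FP1 and 0.569 in RP3, and Dusp1 gave 1.23 in FP1 and 0.910 in RP3. The sum of the 10 genes was 1.24 times UBM in FP1, 0.944 times in RP2 and 0.878 times in RP3. Single genes did not all follow the sum. In FP1 the interval lay above 1 for 7 genes and below 1 for 1. In RP2 it lay above 1 for 1 gene and below 1 for 3, and in RP3 above 1 for 3 and below 1 for 4.

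Against saline, 1 gene of the set changed sides. Dusp1, PCL over saline, was 1.83 in FP1, 0.816 in F1 and 0.560 in RP3, and UBM over saline it was 1.48 in FP1 and 0.615 in RP3.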

How the results depend on the processing

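No paired analysis was possible because each treatment has 1 library and the labels carry no replicate numbers, and for the same reason no replicate could be left out. The summed ratio stayed below 1 in all 3 comparisons under every alternative run. For PCL over UBM it was 0.857 with the trimmed mean of M values, 0.865 with the median of ratios, 0.848 without ribosomal protein genes and Malat1 in the total, 0.916 with each cell counted alike, 0.977 with equal cluster weights, 0.914 without F2 and R3, 0.902 after thinning and 0.941 without RP3. For PCL over saline it was 0.662 with the trimmed mean, 0.624 without ribosomal genes and Malat1, 0.607 with cells alike, 0.559 with equal weights, 0.624 without F2 and R3, 0.621 after thinning and 0.808 without RP3. For UBM over saline it was 0.772, 0.762 and 0.736 with the 3 scalings, 0.663 with cells alike, 0.538 with equal weights, 0.682 without F2 and R3, 0.688 after thinning and 0.859 without RP3. The median of all genes moved by −0.11, −0.10 and −0.13 (log2) for PCL over UBM and by 0.14, 0.12 and 0.07 for UBM over saline under these scalings. Equal weights left 1 gene 1.5-fold apart between PCL and UBM, Nr4a1, with Egr1 at 0.88. Reversed values were Jun, PCL over UBM, at 1.13 and Dusp1, UBM over saline, at 0.770, both with equal weights, and Fos, PCL over saline, at 1.03 without RP3, where Fos, UBM over saline, was also at 1.22; the cause was not tested. Of 300 values for single genes, 170 stayed within their counting interval, 127 moved beyond it and 3 reversed. Depth limits the saline library most, with 1888343 UMIs in 341 cells.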

Other observations

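Saline RP1 was too small for the levels above. It held 13 saline cells, of which 11 had over 10% mitochondrial UMIs, with a median of 42.7%, and gave 1.14% of the library's UMIs of the 10 genes.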
